A study of Homo sapiens with 3 samples.

Results

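S100 proteins are small calcium sensors, and 10 of their genes were followed here in the human cell line PC-3, long established from a bone metastasis of prostate cancer. The 10 genes, S100A2, S100A3, S100A4, S100A6, S100A10, S100A11, S100A13, S100A14, S100A16 and S100P, were found among the 18331 gene identifiers counted in any library. They are part of 16 S100 family genes with any count and were chosen with earlier results of these data known. The 6 left out are given near the end, so the 10 do not stand for the whole family. All 10 passed the filter on low counts (10 counts at the median library total, or 1.94 CPM, in at least 1 library; CPM are counts as a share of the library), as did 14016 genes in all. S100P and S100A14 passed it only through the control, where they are high, so they had to differ, and their tests are given as a description. Polyadenylated RNA of PC-3 cells was sequenced 7 days after infection by a lentivirus that expresses a short hairpin RNA (shRNA). Of the 3 libraries, 2 were labelled KMT2D shRNA (numbered 1 and 2, genotype KMT2D deficiency) and 1 control shRNA (genotype KMT2D normal). All 3 libraries thus came from cells that carried a lentiviral shRNA, and the labels say neither whether the numbers stand for different hairpins nor whether libraries came from separate cultures. The p-values therefore rest only on the spread between these libraries, which may be technical, and the control was assumed to vary like the labelled pair. In the main test the spread of each gene was drawn mostly from other tested genes (45.7 prior degrees of freedom beside 1 residual).

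An S100 protein works as a dimer. Each chain carries a pair of EF-hands, the loops that hold calcium, and calcium binding opens a surface that grips a target protein such as an annexin or a myosin. Most of the genes sit side by side in a cluster on the long arm of chromosome 1, whereas S100P lies alone on chromosome 4. Their messages are short, and in carcinoma cells several S100 proteins are known as markers of epithelial state, motility or invasion.

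Library totals ran from 5123794 to 5559449 counts. KMT2D, the targeted gene, a histone methyltransferase of enhancers, stood at 107 and 138 CPM (from here on also scaled between libraries) in the libraries labelled KMT2D shRNA and at 100.1 CPM in the control, a log2 fold change of 0.29 that did not pass (adjusted p = 0.227 by edgeR). Once a trend with transcript length was taken out it was -0.67 (adjusted p = 0.00457 by edgeR). The RNA of KMT2D thus did not settle the label, and directions are given for the labelled libraries. Of the marker genes, the keratins KRT8, KRT18 and KRT19 were present in every library, whereas KLK2 and KLK3, which mark luminal prostate cells, were listed in no library. In bulk RNA, fewer cells of a type and less RNA per cell cannot be told apart.

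The start regions of 4 members are shown. S100P and S100A4 were taken for the largest falls that passed without the length trend, though S100P entered that test only through the control. S100A14 had a larger fitted fall than S100A4 there (-1.52 against -1.31) but did not pass. S100A6 and S100A10 were taken as abundant members with smaller falls. Sequences are RefSeq's, build GRCh38.p14, which is not the hg19 build named for the files, and each spans 250 bases before to 50 bases after the start site. Capitals mark matches to any of 6 motifs searched on both strands: the TATA box (TATAAA), the CCAAT box (CCAAT), the GC box (GGGCGG), the AP-1 site (TGANTCA), the interferon response element core (GAAA, any 2 bases, then GAAA) and the gamma-activated site (TTCNNNGAA). The capitals in S100P (chr4:6693628-6693927, plus strand) and S100A4 (chr1:153545757-153546056, minus strand) are TATA boxes, and those in S100A6 (chr1:153535942-153536241, minus strand) and S100A10 (chr1:151993810-151994109, minus strand) are GC boxes, 2 of which overlap in S100A6.
S100P: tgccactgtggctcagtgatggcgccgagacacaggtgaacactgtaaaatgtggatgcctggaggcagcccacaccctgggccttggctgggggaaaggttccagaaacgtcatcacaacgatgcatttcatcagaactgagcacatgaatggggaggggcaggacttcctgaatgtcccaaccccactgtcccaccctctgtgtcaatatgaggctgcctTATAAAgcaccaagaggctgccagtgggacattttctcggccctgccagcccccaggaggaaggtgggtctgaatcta
S100A4: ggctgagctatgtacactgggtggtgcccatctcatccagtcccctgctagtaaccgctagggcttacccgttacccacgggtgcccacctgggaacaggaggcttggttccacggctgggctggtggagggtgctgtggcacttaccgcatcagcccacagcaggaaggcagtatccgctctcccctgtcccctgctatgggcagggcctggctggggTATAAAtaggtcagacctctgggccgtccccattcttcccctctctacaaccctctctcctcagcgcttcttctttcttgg
S100A6: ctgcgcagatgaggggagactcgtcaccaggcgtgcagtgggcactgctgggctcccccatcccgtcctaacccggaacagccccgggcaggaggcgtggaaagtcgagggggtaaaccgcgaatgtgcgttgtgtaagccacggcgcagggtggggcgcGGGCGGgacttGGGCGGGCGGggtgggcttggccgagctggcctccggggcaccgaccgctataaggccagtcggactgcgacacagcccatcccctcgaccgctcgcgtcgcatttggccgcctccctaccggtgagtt
S100A10: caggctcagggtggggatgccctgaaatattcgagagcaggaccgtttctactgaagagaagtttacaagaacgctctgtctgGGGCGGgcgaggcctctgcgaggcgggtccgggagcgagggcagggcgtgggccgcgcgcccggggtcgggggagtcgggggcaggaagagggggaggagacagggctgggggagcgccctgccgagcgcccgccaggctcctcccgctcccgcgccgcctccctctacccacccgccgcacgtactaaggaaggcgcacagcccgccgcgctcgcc

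All 10 members matched a start region in that table. An exact TATAAA match lay from base -28 to -23 of S100P and from -31 to -26 of S100A4, and in no other member, against 12% of 27305 promoters of the same length. Near matches were not searched for. The start regions of S100A6 and S100A14 hold the near match TATAAG, so the exact letters do not set S100P and S100A4 apart by TATA-like sequence. GC boxes were found in 5 members, S100A3, S100A6, S100A10, S100A11 and S100A13, against 44.6% of all promoters. The start regions of S100A6 and S100A10 held 31 and 32 CG pairs, those of S100A11 and S100A13 22 and 19, that of S100A4 8, those of S100A2, S100A3, S100A14 and S100P 5 each and that of S100A16 3, beside a median of 14 over all promoters. AP-1 sites were in S100A2 and S100A3 (7.76% of promoters), a CCAAT box (35.7%) and a gamma-activated site (7.88%) in S100A3 alone, and no member held the interferon response element core (3.65%). These matches describe letters, not bound sites.

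The first comparison asked how the levels of the S100 genes in the labelled libraries differed from those in the control. All 10 members were lower in both labelled libraries than in the control. That was also true of 42.8% of all tested genes and of 80.2% of the 898 tested genes whose transcripts were as long as the members', from 510 to 1085 bases. By edgeR's quasi-likelihood test 9 members fell and 0 rose at a Benjamini-Hochberg adjusted p under 0.05. Without S100P and S100A14 this was 7 of the other 8. Of all tested genes 14.5% fell and 16.5% rose, and of those in the members' length range 43.5% fell. The median log2 fold change was -1.13 over the members, -1.07 over the 8, -0.01 over all tested genes and -0.50 over genes in the length range. Together the members took 0.265% of counts in the control (95% exact interval 0.261% to 0.269%). Their share was 0.142% (0.139% to 0.146%) in labelled library 1 and 0.137% (0.134% to 0.140%) in library 2. The intervals here and below cover counting error only.

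**Figure D1:**
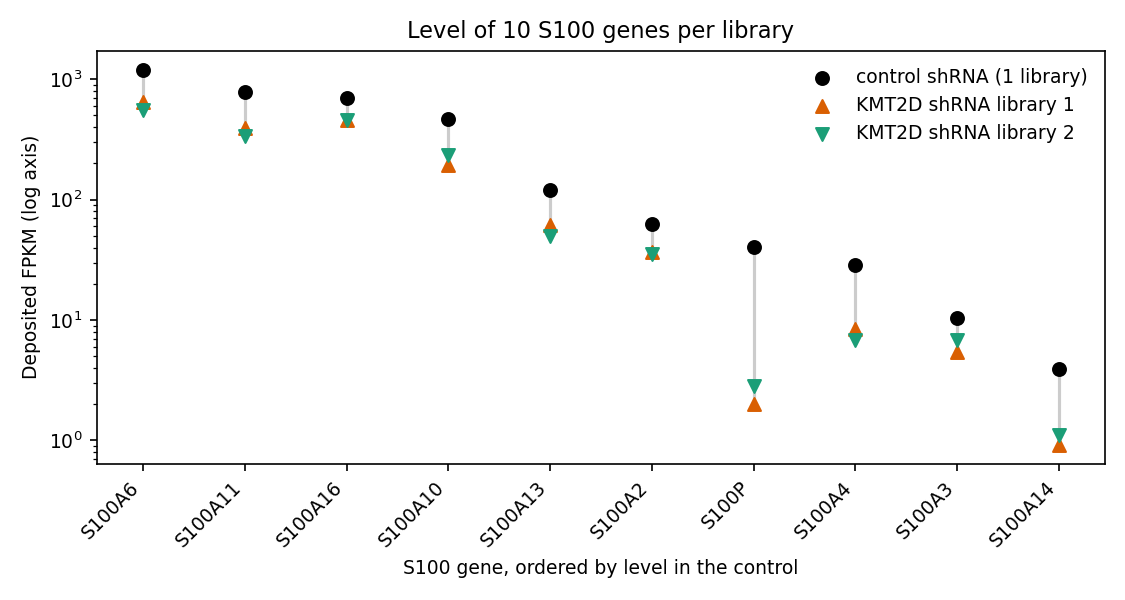
Deposited FPKM of each S100 gene on a log axis, with 1 point per library and a grey line from the lowest point to the control. Every control point lies above both labelled points, and on this axis the gap is widest for S100P, at 40.7 FPKM against 2.02 and 2.84 FPKM.

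Levels can be ordered between genes only per length, as FPKM (reads scaled by transcript length and library total). S100A6 led in every library, and S100A6, S100A11, S100A16 and S100A10 held 92.2% to 93.9% of the members' summed FPKM. The control ran S100A6 at 1204 FPKM, S100A11 at 782, S100A16 at 696, S100A10 at 463, S100A13 at 121 and S100A2 at 62.8 FPKM. Below these lay S100P at 40.7 FPKM, S100A4 at 28.8, S100A3 at 10.3 and S100A14 at 3.91 FPKM. Both labelled libraries shared another order. There S100A16 (458 ± 3.80 FPKM, SD, n = 2) stood above S100A11 (364 ± 39.8 FPKM, SD, n = 2), with no overlap between their libraries. S100P moved from the seventh place to the ninth, at 2.43 ± 0.580 FPKM (SD, n = 2). S100A4 (7.65 ± 1.10 FPKM, SD, n = 2) and S100A3 (6.15 ± 0.997 FPKM, SD, n = 2) could not be ranked beyond their spread, since library 2 held 6.87 and 6.85 FPKM of them.

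S100P, first described in placenta and known in prostate and pancreatic carcinoma, changed most. S100P (Entrez gene 6286) had 0.956 CPM in labelled library 1, 1.38 CPM in library 2 and 19.8 CPM in the control, from 5, 7 and 109 counts. The control was far above both labelled libraries, which lay close together. The ratio to the control was 0.0483 (95% interval 0.0154 to 0.116) in library 1 and 0.0697 (0.0274 to 0.148) in library 2. S100P averaged 1.17 ± 0.300 CPM (SD, n = 2), 17.0-fold below the control (log2 fold change -4.06, SE 0.40, adjusted p = 2.07e-11 by edgeR). S100P entered this test only through the control; with no filter on low counts its adjusted p was 0.00387 by edgeR. The 200 tested genes closest in length to S100P had a median of -0.59, and 51.5% of them fell.

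S100A4, also called metastasin, binds non-muscle myosin and is linked with cell motility. S100A4 (Entrez gene 6275) had 4.01 CPM in labelled library 1, 3.35 CPM in library 2 and 14.2 CPM in the control, from 21, 17 and 78 counts. Both labelled libraries lay below the control, as for 80.2% of tested genes in the members' length range. The log2 fold change of S100A4 was -1.94 (SE 0.35, adjusted p = 2.61e-05 by edgeR), beside a median of -0.59 for the 200 genes closest in length. S100A14, a member of epithelial tissues, had as large a fold change from far fewer reads. S100A14 (Entrez gene 57402) had 0.956, 1.18 and 4.18 CPM in library 1, library 2 and the control, from 5, 6 and 23 counts. Its log2 fold change was -1.94 (SE 0.67, adjusted p = 0.0238 by edgeR), from a test it entered only through the control. With no filter on low counts it did not pass (adjusted p = 0.0642 by edgeR). At this depth the ratio of S100A14 in library 1 to the control could lie anywhere from 0.0679 to 0.615.

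S100A10, S100A11 and S100A13 fell by nearly the same amount. S100A10 (p11) is the light chain of annexin A2 and is unusual in holding no calcium. S100A10 (Entrez gene 6281) had 200.1 CPM in library 1, 248 CPM in library 2 and 492 CPM in the control. S100A11, a partner of annexin A1, had 219, 192 and 449 CPM in the same order (Entrez gene 6282). S100A13, which takes part in the release of FGF1 and interleukin 1 alpha without a signal peptide, had 39.4, 33.7 and 79.9 CPM (Entrez gene 6284). In each of the 3 genes the control was above both labelled libraries, as for 80.2% of tested genes in the members' length range. The log2 fold change was -1.13 for S100A10 (SE 0.16, adjusted p = 4.56e-07 by edgeR), for S100A11 (SE 0.16, adjusted p = 4e-07 by edgeR) and for S100A13 (SE 0.18, adjusted p = 3.31e-06 by edgeR). Exons of S100A13 overlap S100A1 on the opposite strand in GENCODE 29, and no strand-marking step is named, so reads of the 2 genes could be mixed. S100A1 had only 3, 2 and 6 counts.

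S100A6, or calcyclin, is the most abundant member and binds the calcyclin-binding protein CACYBP. S100A6 (Entrez gene 6277) had 422 CPM in library 1, 370 CPM in library 2 and 800.5 CPM in the control, a log2 fold change of -1.02 (SE 0.16, adjusted p = 1.84e-06 by edgeR). S100A2, a gene of basal epithelial cells, had 34.2, 33.9 and 60.3 CPM (Entrez gene 6273) and a log2 fold change of -0.82 (SE 0.19, adjusted p = 0.000624 by edgeR). S100A16, a widely expressed member, fell least, with 478, 496 and 751 CPM (Entrez gene 140576) and a log2 fold change of -0.62 (SE 0.16, adjusted p = 0.00183 by edgeR). In all 3 genes both labelled libraries lay below the control, as for 80.2% of tested genes in the members' length range. Exons of S100A6 overlap an antisense RNA in GENCODE 29, whose reads could not be told apart from its own. S100A3, a cysteine-rich member best known from hair, was the member that did not pass. S100A3 (Entrez gene 6274) had 3.82, 4.93 and 7.45 CPM from 20, 25 and 41 counts, a log2 fold change of -0.77 (SE 0.40, adjusted p = 0.147 by edgeR). The ratio of S100A3 in library 2 to the control, 0.662, had an interval of 0.386 to 1.11 that includes no difference.

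The labelled libraries themselves differed in some members. S100A10 was 1.24 times as high in library 2 as in library 1 (95% interval 1.14 to 1.35), while S100A6 was at 0.875 times (0.823 to 0.931) and S100A11 at 0.877 times (0.805 to 0.956). S100A10 thus leaned one way between the labelled libraries and its neighbour on the chromosome S100A11 the other, beyond counting error. For the other 7 members the interval included 1.

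The second comparison set the members against transcripts of similar length. Fold change followed transcript length across the tested genes (Spearman coefficient 0.467; genes are not independent replicates): short transcripts were lower in the labelled libraries and long ones higher. For the members the fitted trend alone came to between -0.63 for S100P and -0.42 for S100A16. After removal of this trend (below, length correction) 6 of 10 members fell and 0 rose, or 5 of the 8 without S100P and S100A14, against 9.84% of all tested genes and 9.58% of those in the length range that fell; 9.28% of all tested genes rose. The members' median log2 fold change was then -0.55, or -0.49 over the 8, against -0.01 in the length range. All 10 fitted values stayed below 0.

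**Figure D2:**
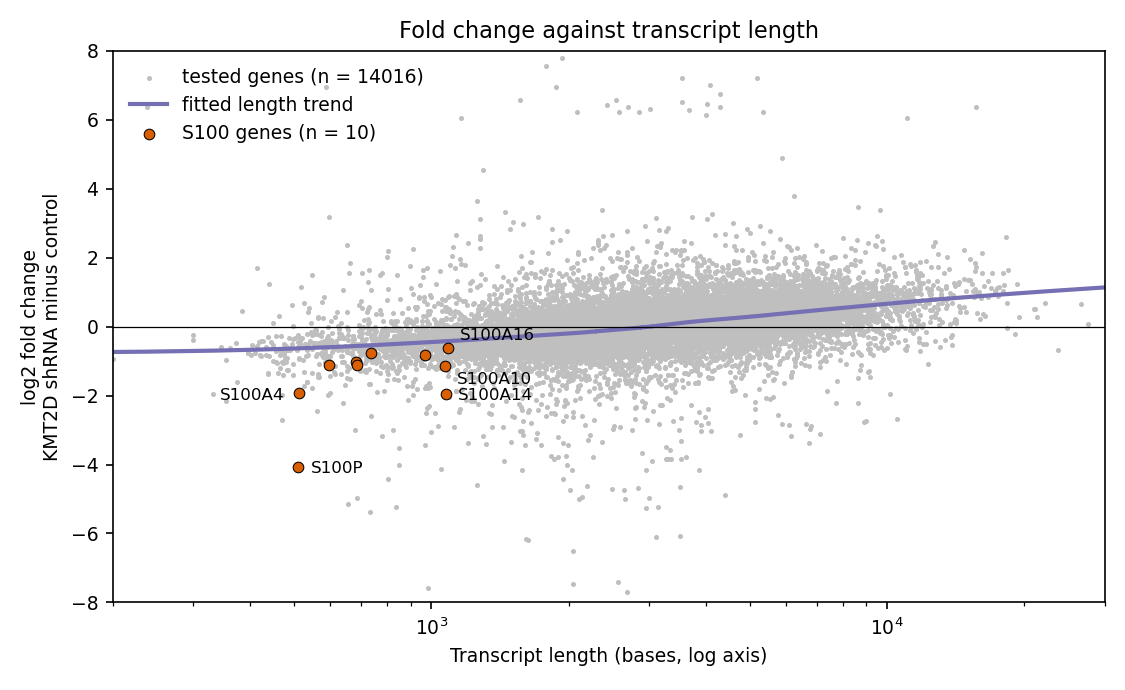
Log2 fold change (KMT2D shRNA minus control) of each tested gene against transcript length in bases on a log axis, with the fitted length trend as a line and the 10 S100 genes in orange. The S100 genes lie at the short end, where the trend is below 0, and each lies under the line, S100P farthest at -4.06. A further 35 tested genes lie outside the axes.

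By size of change and the threshold of 0.05 the members are given here in 3 sets, and differences between members were not tested. After length correction the values were as follows. S100P stayed far below the control (log2 fold change -3.43, SE 0.41, adjusted p = 4.65e-09 by edgeR), and S100A4 kept its fall (-1.31, SE 0.35, adjusted p = 0.00597 by edgeR). S100A10 (-0.71, adjusted p = 0.00148 by edgeR), S100A13 (-0.57, adjusted p = 0.0225 by edgeR), S100A11 (-0.53, adjusted p = 0.0179 by edgeR) and S100A6 (-0.45, adjusted p = 0.0396 by edgeR) fell by less. The calls of S100A2 (-0.37, adjusted p = 0.178 by edgeR), S100A16 (-0.20, adjusted p = 0.403 by edgeR) and S100A14 (-1.52, adjusted p = 0.111 by edgeR) were lost, and S100A3 was at -0.23 (adjusted p = 0.745 by edgeR). S100A14 kept a large fitted value with a wide error, whereas as fitted S100A16 stood at -0.62 beside a median of -0.42 for the 200 genes closest to it in length, and S100A3 at -0.77 beside -0.54. With a trend in GC content removed as well 5 members fell, or 4 of the 8, where 9.04% of all tested genes fell, and S100A6 no longer passed (-0.32, adjusted p = 0.181 by edgeR). Fitted among the 898 genes of the members' length range alone, which shifts the median of these genes from -0.50 to 0.01, only S100P passed (-3.55, adjusted p = 0.0108 by edgeR) where 3.23% of genes fell. In that fit S100A4 was at -1.42 (SE 0.26, adjusted p = 0.0648 by edgeR) and S100A10 at -0.62 (SE 0.17, adjusted p = 0.133 by edgeR). The members' median was -0.62 there and -0.55 after length correction. The lost calls therefore do not mark a smaller fall over the members as a whole, and why fewer passed was not tested. Over all settings that gave one, the adjusted p ran up to 0.0108 for S100P, 0.0648 for S100A4, 0.0795 for S100A11, 0.122 for S100A13, 0.133 for S100A10, 0.181 for S100A6, 0.218 for S100A14, 0.276 for S100A2, 0.643 for S100A16 and 0.883 for S100A3. S100P passed in every setting with an adjusted p, but entered the edgeR fit only through the control, and none of the 8 passed in all of them.

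**Figure D3:**
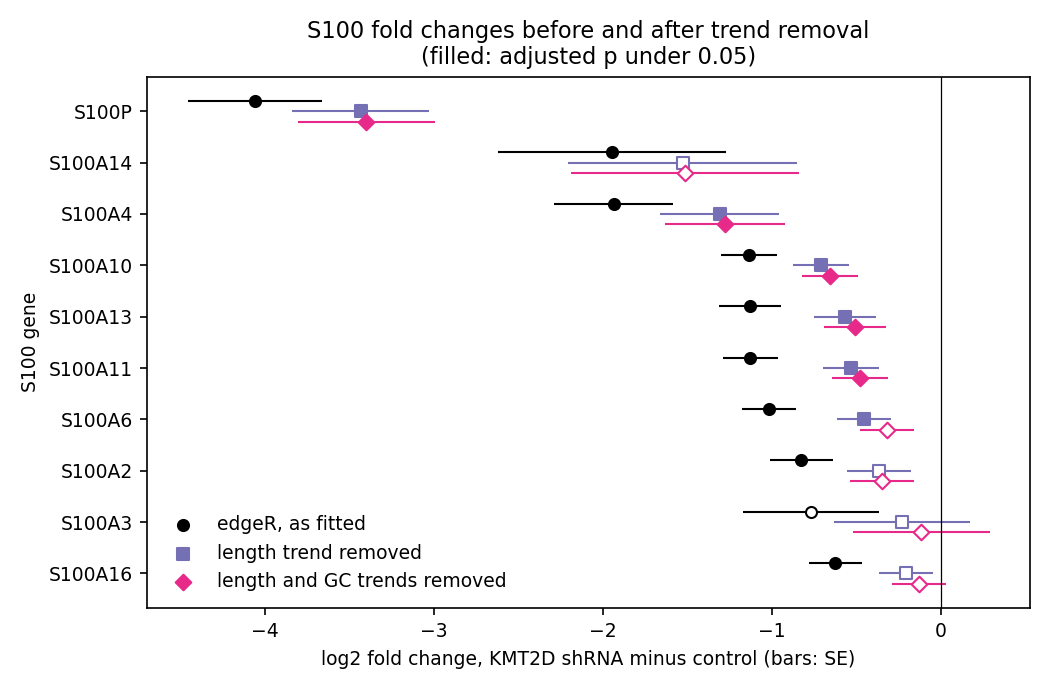
Log2 fold change of each S100 gene with its SE as fitted, without the length trend and without the length and GC trends; filled symbols passed an adjusted p of 0.05. S100P is the lowest in all 3 fits, and S100A16 moves from -0.62 to -0.13.

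The third comparison asked whether partners, receptors and relatives of the S100 proteins differed too. The counts below stand beside the shares over all tested genes, 14.5% fell and 16.5% rose, or 9.84% and 9.28% after length correction. Of 9 tested annexins, calcium-dependent membrane binders, 2 fell and 0 rose, with a median log2 fold change of 0.05, and after length correction 0 fell and 1 rose (median 0.24). ANXA2, the partner of S100A10, had 1495 CPM in library 1, 1732 CPM in library 2 and 1527 CPM in the control, so the control lay between the labelled libraries. Its log2 fold change was 0.08 (adjusted p = 0.732 by edgeR), or 0.37 after length correction (adjusted p = 0.0854 by edgeR). ANXA1, the partner of S100A11, fell by 0.56 on the log2 scale (adjusted p = 0.0115 by edgeR), or was at -0.23 after length correction (adjusted p = 0.395 by edgeR). ANXA3 fell by 0.64 (adjusted p = 0.00702 by edgeR) and stood at -0.36 after length correction (adjusted p = 0.175 by edgeR). ANXA5 was at 0.26 (adjusted p = 0.226 by edgeR), rose after length correction alone, by 0.54 (adjusted p = 0.0157 by edgeR), and did not pass with GC removed as well (0.44, adjusted p = 0.0548 by edgeR).

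Of 21 tested binding partners 3 fell and 5 rose (median 0.13), or 3 and 2 after length correction (median 0.16). AHNAK, the giant scaffold bound by the S100A10 and annexin A2 complex, rose by 1.65 (SE 0.16, adjusted p = 2.33e-11 by edgeR), or by 0.71 after length correction (adjusted p = 0.00068 by edgeR). MYH10, a non-muscle myosin heavy chain, rose by 1.25 (adjusted p = 4.69e-06 by edgeR), or by 0.72 (adjusted p = 0.00809 by edgeR). MYH9, the heavy chain best known as a target of S100A4, rose by 0.89 (adjusted p = 3.7e-05 by edgeR), a call that length correction removed (0.38, adjusted p = 0.0921 by edgeR). With GC removed as well MYH9 passed again (0.48, adjusted p = 0.0331 by edgeR). IL1A, whose product leaves cells with S100A13, had only 12, 9 and 53 counts in library 1, library 2 and the control. From these few reads IL1A fell by 2.23 on the log2 scale (adjusted p = 0.00011 by edgeR) and stood at -2.21 after length correction (adjusted p = 0.000206 by edgeR). CACYBP, the partner of S100A6, was at -0.04 (adjusted p = 0.906 by edgeR). S100PBP, a binding protein of S100P, fell by 0.76 (adjusted p = 0.00462 by edgeR) and stood at -0.98 after length correction (adjusted p = 0.00051 by edgeR). EZR, which encodes the S100P target ezrin, fell by 0.43 (adjusted p = 0.0453 by edgeR) and stood at -0.45 after length correction (adjusted p = 0.048 by edgeR). With GC removed as well EZR did not pass (-0.45, adjusted p = 0.0522 by edgeR). The partners' transcripts are long (median 3757 bases), where the length trend raises fold changes.

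Among 6 tested receptor genes only ALCAM passed, with a rise of 1.09 (adjusted p = 2.94e-06 by edgeR), or 0.81 after length correction (adjusted p = 0.000413 by edgeR). AGER, the RAGE receptor, was at -0.67 (adjusted p = 0.373 by edgeR), and TLR4 had 3 counts or fewer in every library. Of 16 tested genes that flank the S100 loci, 1 fell and 3 rose (median -0.04), or 1 and 1 after length correction (median -0.13). MRFAP1, near S100P, fell by 0.44 (adjusted p = 0.0413 by edgeR), a call that length correction removed (-0.27, adjusted p = 0.28 by edgeR). TDRKH rose by 1.03 (adjusted p = 0.00273 by edgeR), or by 1.08 (adjusted p = 0.00286 by edgeR). KIAA0232 and TBC1D14 rose by 0.74 and 0.64, and neither passed after length correction. THEM4, which lies next to S100A10, was at -0.06 (adjusted p = 0.856 by edgeR). Of 25 other EF-hand genes 5 fell and 3 rose (median -0.14), or 2 and 4 after length correction (median 0.08). The myosin light chain MYL12A was the lowest of these, at -0.97 (adjusted p = 4.04e-05 by edgeR), or -0.59 after length correction (adjusted p = 0.0159 by edgeR). CALM2, a calmodulin gene, fell by 0.68, a call that length correction removed. With GC removed as well CALM2 passed again (-0.53, adjusted p = 0.0241 by edgeR). CALU and CALB1 rose by 0.98 and 0.82 and still passed after length correction.

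**Figure D4:**
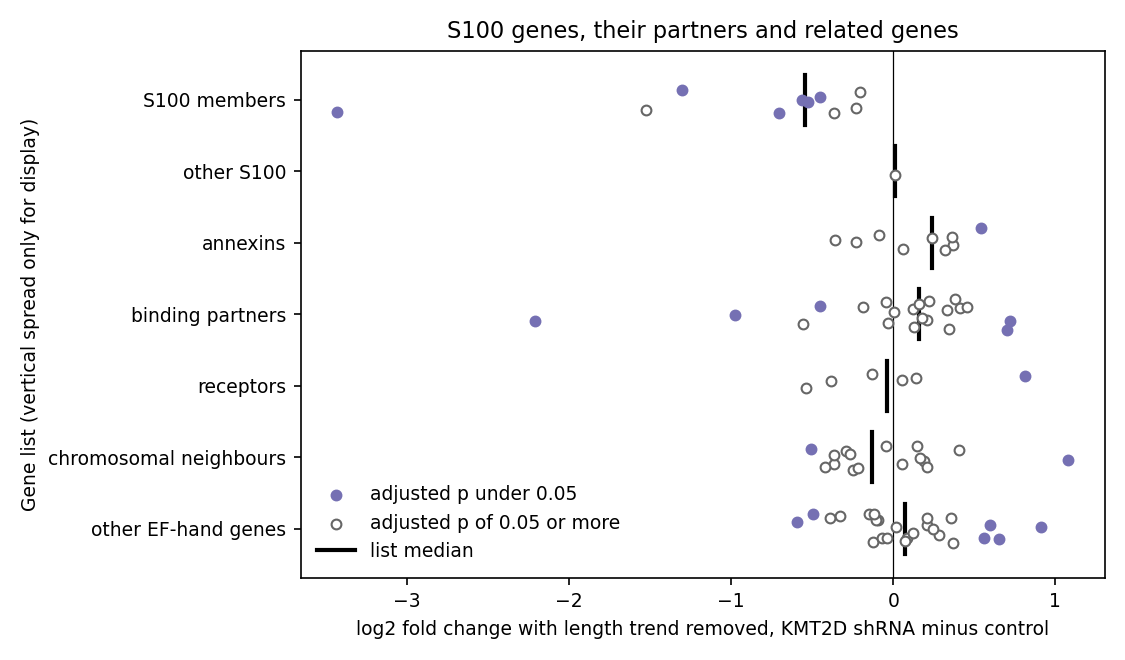
Log2 fold change after length correction for each tested gene of 7 lists, 1 point per gene, with a bar at each list's median; filled points passed an adjusted p of 0.05. The S100 members have a median of -0.55 and all lie below 0, while the medians of annexins (0.24) and binding partners (0.16) lie above 0.

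The rest of the family was barely detected. Of 11 further S100 genes only S100A9, a subunit of calprotectin, passed the filter on low counts, with 4.97, 4.93 and 7.45 CPM and a log2 fold change of -0.59 (adjusted p = 0.263 by edgeR), or 0.01 after length correction (adjusted p = 0.987 by edgeR). S100A5 had 0, 0 and 4 counts, and S100A12, S100B and S100Z had at most 1 count in any library. S100A8, the calprotectin partner of S100A9, was listed in no library. Markers of other cell types did not all move in the same direction. The leukocyte markers summed to 69.8 and 78.4 CPM in the labelled libraries and 184 CPM in the control, mostly CD68. Of 3 tested, 2 fell, or 1 after length correction. CD68 fell by 1.56 on the log2 scale (adjusted p = 6e-10 by edgeR) and stood at -1.33 after length correction (adjusted p = 4.99e-08 by edgeR). LYZ, lysozyme, was then at -0.33 (adjusted p = 0.289 by edgeR). The leukocyte marker CD3E was listed in no library, and PTPRC had 7, 11 and 7 counts. Of the 6 epithelial markers, which summed to 1031, 1033 and 1759 CPM, 4 fell and 0 rose, or 3 fell after length correction and 2 with GC removed as well. The 5 fibroblast markers summed to 376, 386 and 399 CPM, nearly all COL1A1. That collagen gene was at -0.07 (adjusted p = 0.791 by edgeR), fell after length correction (-0.45, adjusted p = 0.0418 by edgeR) and did not pass with GC removed as well (-0.33, adjusted p = 0.163 by edgeR). The 4 endothelial markers summed to 135, 102 and 69.0 CPM, mostly KDR. KDR rose by 1.03 (adjusted p = 6.13e-05 by edgeR), or by 0.63 after length correction (adjusted p = 0.016 by edgeR). PECAM1, the other tested one, was at -0.09 (adjusted p = 0.805 by edgeR). The part of these markers in the S100 results was not tested.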

How the data were processed

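RNA of 3 PC-3 libraries was sequenced on a BGISEQ-500. HISAT, Bowtie2 and hg19 are named, without roles, in the submitters' processing notes, and the counting tool is not given in the sources used here. The authors deposited, per the file headers, expected counts (estimated reads per gene, not normalized), FPKM (scaled by length and total) and transcript length for each library. Genes missing from a table were taken as 0. Entrez identifiers were named with a RefSeq table of GRCh38.p14, used for names only (99.5% matched). Expected counts were rounded and tested with edgeR 4.0.16 in R 4.3.3: default low-count filter, TMM scaling, group only, 1 residual degree of freedom, Benjamini-Hochberg adjustment over all tested genes, threshold 0.05. The variance of each gene was mostly shared from other tested genes (median prior degrees of freedom 45.7). SE values come from the F statistic. A loess trend of fold change on log2 length (span 0.3), or on length and GC of GENCODE 29 transcripts, was removed as an offset. Because the trend is fitted to these same fold changes, a real difference that follows length would be removed with it. Intervals are exact binomial at 95%. The floor of 3 counts equalled 0.540 to 0.586 CPM. Alternatives were other scalings and filters, DESeq2 1.42.0, and limma 3.58.1 on log2 FPKM with pseudocounts of 1 and 0.1. The scripts were tested on simulated data. Members and lists were chosen with earlier results of these data known. Named were all members, KMT2D, up to 4 passing genes per list by size of change, and S100 genes with any count; ANXA2, ANXA5, CACYBP, S100PBP, EZR, AGER, TLR4, THEM4 and S100A8 were added for their place beside a member. Some marker genes are not reported here.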

Additional observations from a re-analysis of the deposited data

How the results depend on the processing

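The members' median log2 fold change of -1.13 moved to -0.62 within the length range of the members, to -0.55 with the length trend removed and to -0.49 with GC removed as well, and lay between -1.17 and -1.02 when either labelled library was left out, which leaves 1 library against 1 and no test. The 9 members that fell became 1 within the length range, 5 with both trends removed and 5 with DESeq2, which gave 4 members no adjusted p; other settings gave 6 to 9. All genes called, 4352 with edgeR, numbered 34 of 898 in the length range (29 lower and 5 higher), 2679 and 2489 with the length trend and both trends removed, 1897 without a filter on low counts, 1169 with DESeq2, and 1623 and 1068 with limma at pseudocounts of 1 and 0.1. KMT2D turned from 0.29 to -0.67 and -0.50 with the length trend and both trends removed. Leaving out S100P and S100A14, which passed edgeR's low-count filter only through the control, was chosen after seeing the data and gave a median of -1.07 and 7 of 8 members that fell. No member changed sign in any setting. Causes were not tested, except that the length range fit holds fewer genes by construction. Members with 25 counts or fewer, S100P, S100A4, S100A14 and S100A3 in the labelled libraries, are limited by depth. No paired analysis was possible because there was only 1 control library.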

Other observations

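The S100 fused-type genes, giant relatives that join an S100 domain to long repeats in skin and hair, were rarely detected. FLG, or filaggrin, had 62 counts in each library labelled KMT2D shRNA and 12 in the control, or 11.9, 12.2 and 2.18 CPM. Its log2 fold change was 2.45 (SE 0.42, adjusted p = 9.64e-06 by edgeR), and it was 1.68 after length correction (adjusted p = 0.00357 by edgeR). FLG2 had 5, 5 and 15 counts and did not pass (-1.47, adjusted p = 0.156 by edgeR). HRNR had 6, 4 and 5 counts, too few to be tested. TCHH, TCHHL1, CRNN and RPTN had no counts above 3.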
